A study of Drosophila melanogaster with 2 samples.

Results

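The regions described here are 1270 ChIP-seq peaks whose summits lay upstream of a promoter that is read in one direction, of the 4867 peaks that the authors kept by irreproducible discovery rate (IDR), or 26.1% (95% Clopper-Pearson interval 24.9 to 27.4). A peak was taken when its summit was not on X, when at least 1 annotated transcription start site (TSS, the 5' end of a transcript) lay within 500 bp, when all such TSSs were on the same strand, and when the summit was upstream of or at the nearest of them. The choice used position and annotation, not signal. Each entry of the list with its own summit counts as a peak, also where entries share an interval and a TSS, as at papi, Hmg-2 and Drat. Chromatin came from whole adult male Drosophila melanogaster of unknown age, of a transgenic line stably carrying CG33017 with a C-terminal GFP tag. Per the labels' description the precipitation was made with an antibody against GFP, although their antibody field names CG33017. The 2 samples are biological replicates 1 and 2 of 1 group, so no conditions were compared, and chromatin from untagged flies was not analysed here. Whole animals mix tissues, so a peak does not show in which cells the protein was.

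Transcription from a one-strand promoter leads into one gene, whereas divergent promoters serve a gene on each side and share the sequence between them. The stretch just upstream of an active start site tends to be depleted of nucleosomes, and runs of A and T resist wrapping into nucleosomes. Drosophila core promoters carry short elements near the start site, among them the TATA box, the DNA replication-related element (DRE) and the element called motif 7, while GAGA repeats are recognised by GAGA factor, the product of Trl.

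The sequences show the letters under the strongest peaks. Each is given 5' to 3' on the strand of the gene on dm6 (RefSeq sequence of Release 6), over 50 bp each side of the summit. The first 8 are the windows of highest signal among those eligible for printing, at CG14100 (chr3L:19590560-19590660, minus strand), CG18549 (chr3R:12449121-12449221, plus strand), aay (chr3L:9423011-9423111, plus strand), papi (chr2L:2221747-2221847, plus strand), CG10165 (chr2L:19528453-19528553, minus strand), lncRNA:CR31044 (chr3R:29214386-29214486, plus strand), lncRNA:CR46036 (chr3R:17700546-17700646, plus strand) and Glyp (chr2L:2130587-2130687, plus strand), and capitals mark the longest unbroken run of A and T.
CG14100: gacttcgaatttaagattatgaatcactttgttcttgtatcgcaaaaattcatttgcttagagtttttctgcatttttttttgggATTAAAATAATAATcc
CG18549: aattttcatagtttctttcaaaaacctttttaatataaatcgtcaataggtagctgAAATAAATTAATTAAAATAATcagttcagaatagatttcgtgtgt
aay: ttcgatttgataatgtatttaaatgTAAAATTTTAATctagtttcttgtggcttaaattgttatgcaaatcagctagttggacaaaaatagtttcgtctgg
papi: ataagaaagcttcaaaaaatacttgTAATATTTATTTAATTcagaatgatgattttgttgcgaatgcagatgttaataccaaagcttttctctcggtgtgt
CG10165: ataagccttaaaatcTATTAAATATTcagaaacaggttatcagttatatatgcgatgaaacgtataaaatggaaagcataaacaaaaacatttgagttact
lncRNA:CR31044: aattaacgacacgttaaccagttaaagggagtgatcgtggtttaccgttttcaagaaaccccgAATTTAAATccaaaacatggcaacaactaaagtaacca
lncRNA:CR46036: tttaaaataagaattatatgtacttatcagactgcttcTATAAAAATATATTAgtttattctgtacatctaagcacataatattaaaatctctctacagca
Glyp: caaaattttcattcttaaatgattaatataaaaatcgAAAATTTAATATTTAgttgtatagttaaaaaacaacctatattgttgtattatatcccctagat
Their GC ran from 18.8% at Glyp to 37.6% at lncRNA:CR31044, and their longest A/T runs from 9 bp at lncRNA:CR31044 to 21 bp at CG18549. Not all strong peaks were AT-rich: over the 25 strongest, GC ran from 17.8% to 47.5%, and the window at Hsp83, with 47.5%, had a longest A/T run of 4 bp.

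The next windows, from peaks of lower signal, hold a match to motif 7, here CAGCNCTA, CAGCNCTG, CATCNCTA or CATCNCTG, in capitals and read towards the gene. They lie upstream of lncRNA:CR45054 (chr3R:10083251-10083351, plus strand), CG5188 (chr2L:10428684-10428784, plus strand) and Rpn12 (chr3L:16582871-16582971, plus strand).
lncRNA:CR45054: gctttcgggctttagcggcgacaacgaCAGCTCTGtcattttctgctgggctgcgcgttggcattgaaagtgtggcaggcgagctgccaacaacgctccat
CG5188: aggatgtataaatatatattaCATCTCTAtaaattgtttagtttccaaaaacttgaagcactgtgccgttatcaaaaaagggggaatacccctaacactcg
Rpn12: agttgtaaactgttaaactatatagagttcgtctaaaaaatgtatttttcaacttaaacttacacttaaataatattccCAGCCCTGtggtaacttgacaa
A GAGAGAG match on either strand is in capitals at another summit in the same peak interval of papi (chr2L:2221950-2222050, plus strand) and at CG2246 (chr3R:30600679-30600779, minus strand), and the palindromic DRE core TATCGATA at Tpr2 (chr2L:16491411-16491511, plus strand) and Abl (chr3L:16647924-16648024, minus strand).
papi: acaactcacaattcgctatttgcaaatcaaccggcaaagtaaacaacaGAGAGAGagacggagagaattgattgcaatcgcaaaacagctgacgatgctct
CG2246: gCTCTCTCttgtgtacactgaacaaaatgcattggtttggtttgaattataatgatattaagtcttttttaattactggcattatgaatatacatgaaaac
Tpr2: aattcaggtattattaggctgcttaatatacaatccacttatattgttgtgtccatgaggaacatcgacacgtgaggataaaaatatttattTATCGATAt
Abl: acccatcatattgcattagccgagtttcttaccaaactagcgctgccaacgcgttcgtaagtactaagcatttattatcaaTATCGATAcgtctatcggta
A match is a description of the letters and does not show that a factor sat there.

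The upstream summits made up 29.9% of 4244 autosomal peaks, 48.0% of 2645 autosomal peaks near a TSS and 71.9% of the 1767 whose TSSs were on one strand. When the 4867 peaks of highest signal in each replicate's own list were classed in the same way, 1233 peaks of replicate 1 and 1270 of replicate 2 fell in the class (1252 ± 26.2, SD, n = 2). Of the other autosomal summits, 878 lay near TSSs of both strands (called two-sided promoters below), 497 lay downstream at one-strand promoters and 1599 were farther than 500 bp from any TSS. Peak signal is the authors' own value per peak and is used here only to rank and describe peaks within a list. It ran from 105.3 to 2981 over the upstream summits, with a median of 171.1 and quartiles of 129.9 and 277.7. The median was 185.5 at summits near TSSs of both strands, 149.5 at downstream summits and 159.4 at distal summits. The read depth behind the lists is unknown, and all intervals below cover the counting of peaks or genes only.

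Arms 2L, 2R, 3L, 3R and 4 held 292, 306, 299, 370 and 3 upstream summits. Read per gene, 7.53% of genes on 2L, 7.73% on 2R, 7.94% on 3L and 7.89% on 3R had such a summit within 500 bp of a TSS, against 2.54% (3 of 118) on 4. The 4 large arms thus differed little in the share of genes, and the count on 4 is too small to place.

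Summits had a median offset of -141 bp from the start site, where negative means upstream, with quartiles of -242.8 and -68.25 bp. The replicate lists gave medians of -153 bp and -138 bp. Between 50 and 250 bp upstream lay 735 summits (57.9%), within 50 bp lay 237 (18.7%) and beyond 250 bp lay 298 (23.5%). The share per 25 bp fell from 9.92% at 25 to 50 bp upstream to 1.1% at 475 to 500 bp. For 794 peaks (62.5%) the authors' summit is simply the middle of the peak, which limits how finely position can be read.

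**Figure D1:**
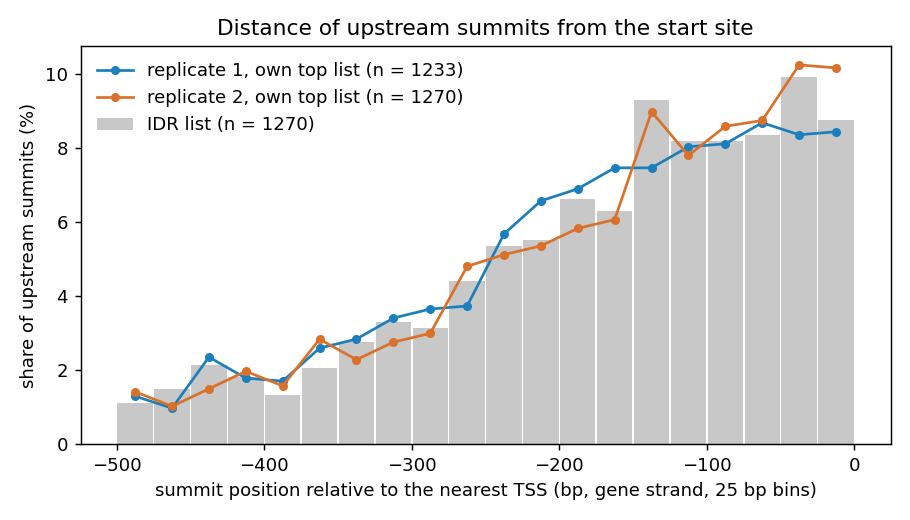
Share of upstream summits (y axis, percent of each list) by distance from the nearest TSS (x axis, bp on the gene strand, bins of 25 bp) for the IDR list (bars, n = 1270) and each replicate's own top list (points and lines, n = 1233 and 1270). All 3 distributions are densest within 150 bp of the start site and thin out towards 500 bp, where the class ends.

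At the limit of the class, the summits just inside were those of Pino at -500 bp with a signal of 230.9, of ham at -497 bp with 109.5 and of CG5973 at -490 bp with 208.5. Those just outside were at lola at -501 bp with 220.5, CG11898 at -506 bp with 161.2 and mir-274 at -511 bp with 274.8.

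The strongest peaks stood at a different place from the weakest. Over 5 quintiles of 254 peaks each, ranked by signal, from strongest to weakest, the median offset was -192, -150, -125, -126 and -107 bp. Summits within 50 bp of the start site made up 7.48% of the strongest quintile and 27.2% of the weakest. Replicate 1's own list went from -195 bp in its strongest quintile to -127.5 bp in its weakest, and replicate 2's from -188.5 to -110 bp. Summits placed in the 2 replicates for the same peak differed by a median of 15.5 bp in the strongest quintile and 43 bp in the weakest, and the summit was the middle of the peak in 3.15% of the strongest and 96.5% of the weakest. The part of this change in summit placement in the offsets, and in the base composition at the summits given next, was not tested.

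Base composition moved with signal as well. The 101 bp window at the summit held 29.6% GC in the strongest quintile, then 35.4, 38.6, 39.7 and 39.9%. The strongest quintile had 29.2% in replicate 1's own list and 30.4% in replicate 2's, and the weakest to 39.9 and 40.2%. An A/T run of at least 20 bp was present in 9.84% of the strongest windows and 4.72% of the weakest. The difference was also there at like distances from the gene: among summits 100 to 200 bp upstream, GC was 27.9% over 102 peaks of the strongest quintile and 35.8% over 56 of the weakest. At a fixed position, 141 bp upstream of the same start sites, the windows held 35.5% and 38.2%, so the low GC of the strongest peaks was more marked at their own summits than at that set distance.

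**Figure D2:**
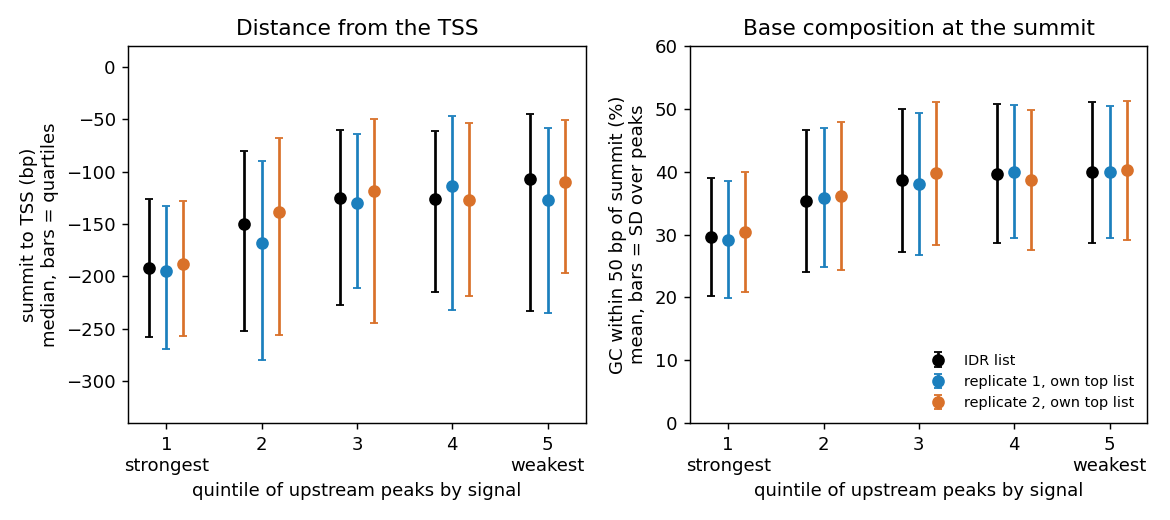
Median offset of the summit from the TSS with quartiles (left, bp) and mean GC within 50 bp of the summit with SD over peaks (right, percent), for quintiles of the upstream peaks ranked by signal, in the IDR list and each replicate's own top list. In all 3 lists the strongest quintile sits farthest from the gene, at -188.5 to -195 bp, and has the lowest GC, 29.2 to 30.4%, with wide overlap between quintiles.

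The dip was local in the strongest quintile, whose summits were also the most closely placed between replicates. In the strongest quintile, GC averaged 39.9% at 390 bp on the upstream side of the summit, 27.6% in the 30 bp bin centred 30 bp upstream of it, 28.9% at the summit and 47.0% in the bin 150 bp towards the gene. The weakest quintile had 39.7% at the summit, and one-strand promoters with no peak in the pooled list, read around the position 141 bp upstream of their TSS, had 38.7%. Over all 1270 peaks the summit windows averaged 36.6% (36.8 ± 0.328 over the replicates, SD, n = 2). For reference, the same measure was 32.4% at summits near TSSs of both strands, 42.8% at downstream summits, 38.8% at all 12781 one-strand promoters of the annotation, those of the upstream peaks included, taken 141 bp upstream, and 42.1% over the autosomal arms.

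**Figure D3:**
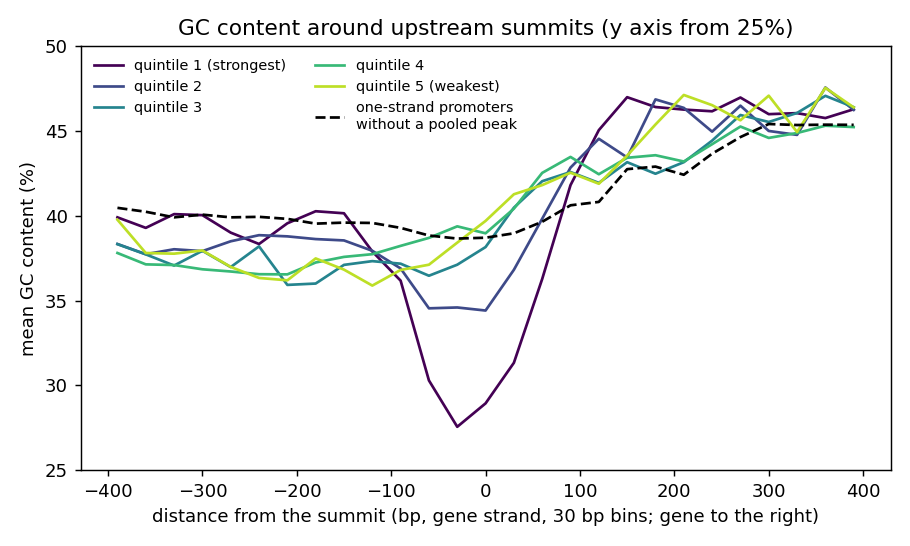
Mean GC content (y axis, percent, starting at 25) in 30 bp bins by distance from the summit (x axis, bp, gene to the right) for the 5 signal quintiles and, dashed, for one-strand promoters without a pooled peak. The strongest quintile dips to 27.6% just upstream of its summits and the second to about 34.4%, while the other 3 quintiles stay near the dashed line of 38.7% at the summit. Summits are placed less closely in the weaker quintiles.

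The 25 peaks of highest signal ranged from 1324 to 2981. Their offsets ran from -355 to -86 bp with a median of -145 bp, and 23 of them lay between 80 and 250 bp upstream. Their windows averaged 26.8% GC. Both replicates ranked all 25 high, the lowest rank being 63 of 30000 peaks in replicate 1 and 64 in replicate 2. Upstream summits made up 12 of the 25 strongest and 39 of the 100 strongest peaks of the whole IDR list, of which they were 26.1%. The other classes were not counted in this way.

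The highest signal was at CG14100, with 1413 in replicate 1 and 1584 in replicate 2 (IDR list 2981), in intergenic sequence 86 bp from the TSS. CG18549 had 1341 and 1309 in the replicates, 125 bp upstream, and CG1635 had 1350 and 1137, 135 bp upstream. mRpL41, a protein of the large mitochondrial ribosomal subunit, had 1139 and 1198 at -141 bp, and that summit had TSSs of 2 genes near it. These 4 were close in both replicates, with no order between replicates that held across them. Fkbp14, a peptidyl-prolyl isomerase of the endoplasmic reticulum, had 1203 and 946.6.

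Among the other strong peaks, Lpin, a phosphatidate phosphatase of fat synthesis, had a signal of 1990 at -243 bp in an intron ahead of an internal start site. The peak at aay, the phosphoserine phosphatase of serine synthesis, reached 1984, that of Acsf2, an acyl-CoA synthetase, 1832, and that of Glyp, glycogen phosphorylase, 1535. Eno, the glycolytic enzyme enolase, had 1361 at -217 bp.

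REPTOR, a transcription factor held in check by TOR complex 1, had 1347 at -161 bp. Hsp83, the Drosophila Hsp90, had 1335 at -100 bp, with 47.5% GC the richest of the 25 windows. Hsp27, a small heat shock protein, had 1325 at -155 bp. The others were papi, a Tudor protein of the piRNA pathway, with 1955, gish, a casein kinase I, with 1478, sbb, a transcriptional corepressor, with 1418, Hpf1, a cofactor of poly(ADP-ribosyl)ation, with 1372, and C1GalTA, a glycosyltransferase, with 1599. CG11357, CG10165, CG1888, CG1827 and CG7841 and the long non-coding genes lncRNA:CR31044 and lncRNA:CR46036 completed the set, with 1957, 1942, 1845, 1400, 1324, 1722 and 1566. At the other end, the lowest signal of all upstream peaks was 105.3 at Apt1, an acyl-protein thioesterase, 16 bp from its TSS.

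Both replicates held nearly all of the upstream peaks. Within the replicates' own top 4867 peaks, 86.8% of the upstream peaks were overlapped in replicate 1 and 88.0% in replicate 2 (87.4 ± 0.835%, SD, n = 2), with 971 (76.5%) in both. In the full lists of 30000 peaks each, 1267 of 1270 were found in both. All 254 peaks of the strongest quintile were in both top lists, against 54 (21.3%) of the weakest. Over the 1267 shared peaks the signals of the replicates had a Spearman rho of 0.712, a description across peaks that were themselves selected on both replicates. Within the quintiles, which were cut on the signal of the IDR list, rho was 0.845 in the strongest and -0.062, -0.52, -0.28 and -0.54 in the others. The IDR signal was near the replicate signals added together, as at CG18549 with 1341, 1309 and 2642. This does not hold for every entry that shares an interval, as each takes the same best overlapping replicate peak. The papi summit at -89 bp had 964.4, 999.7 and 500.8, and such repeated values are part of the rho. Within a narrow band of IDR signal, such as 124.7 to 150.5 in quintile 4, a high value in 1 replicate goes with a low one in the other. The rho of the 4 weaker quintiles therefore cannot show whether the replicates shared an order there. The IDR list was made from the same replicates, so none of these values is an independent check.

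**Figure D4:**
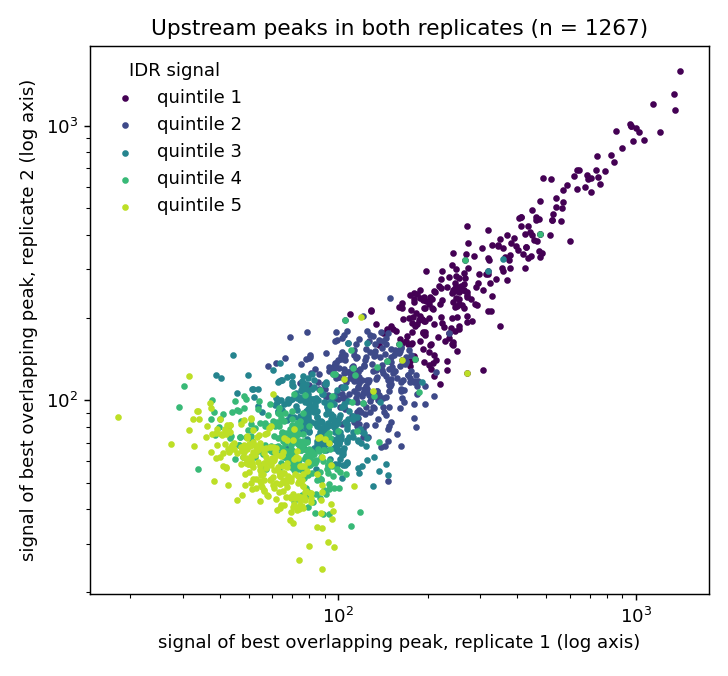
Signal of the best overlapping peak in replicate 1 (x axis, log scale) and replicate 2 (y axis, log scale) for the 1267 upstream peaks found in both full lists, coloured by quintile of IDR signal. The strongest quintile follows a narrow diagonal up to 1413 and 1584 at CG14100. The weaker quintiles are narrow bands of IDR signal, which cannot show whether the signals of the replicates rise together within them.

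The 3 peaks whose ranks differed most were each missing from one full replicate list. The peak at chn, a zinc finger transcription factor gene, ranked 885 in replicate 2 and the peak at hebe ranked 1158 there, and neither was in the list of replicate 1. The peak at Dph1, an enzyme of diphthamide synthesis, ranked 2796 in replicate 1 and was missing from replicate 2.

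The upstream peaks lay mostly between genes or in introns. By the base at the summit, 672 (52.9%) were intergenic, 455 (35.8%) intronic, 82 (6.46%) in a 5' UTR, 34 (2.68%) in a 3' UTR, 23 (1.81%) in a non-coding exon and 4 in coding sequence. The reference was the set of 12781 one-strand promoters read 141 bp upstream, of which 54.2% were intergenic, 30.2% intronic and 3.77% coding. Summits in coding sequence were thus 0.315% of the upstream peaks (95% Clopper-Pearson interval 0.0859 to 0.804).

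Start sites inside genes were frequent. The nearest TSS was an internal one, downstream of the gene's outermost start, for 461 peaks (36.3%), and 465 summits (36.6%, interval 34.0 to 39.3) lay inside the span of the gene they preceded, against 22.0% of the reference promoters. Summits inside another gene on the same strand made up 4.41%, against 12.7% of the reference, and inside another gene on the other strand 6.06%, against 11.1%. For 55.7% of the peaks the nearest gene had several TSS positions, against 36.6% of the reference promoters, where a gene with several peaks or promoters counts for each. The protein-coding nearest genes had a median length of 5049 bp, against 2207 bp in the reference. Of the intergenic summits, 464 had as their next gene upstream one on the same strand, at a median of 393.5 bp, and 208 one on the other strand, at a median of 1409 bp. These were 36.5% and 16.4% of the upstream peaks. In the reference the shares were 34.9%, at a median of 593 bp, and 19.3%, at 2295 bp. The class leaves out summits with a TSS of the other strand within 500 bp, so a longer distance to such genes is built in.

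The 1270 peaks had 1138 different nearest genes, of which 1036 were nearest to 1 peak, 81 to 2, 16 to 3, 2 to 4, 2 to 5 and 1 to 6. The genes with the most were looked up after these counts were seen. SNF4Agamma, the regulatory gamma subunit of AMP-activated protein kinase, had 6 upstream peaks at its alternative starts, with signals from 141.4 to 248.2. Svil, a supervillin-type actin regulator, had 5, from 142.2 to 757.6, and Rtnl1, a reticulon of the endoplasmic reticulum, had 5, from 138.5 to 734.9. bun, a TSC22-domain gene, and ps, the splicing regulator pasilla, had 4 each. Peaks at alternative starts of 1 gene share that gene and are not independent of each other, nor are summits that share an interval and a TSS. The nearest gene was protein-coding for 1193 peaks (93.9%), against 80.9% of the 12781 one-strand promoters. It was a non-coding RNA gene for 69, and 57 peaks had TSSs of at least 2 genes within 500 bp.

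Counted by gene, 1188 of 15351 autosomal genes (7.74%) and 1093 of 11749 autosomal protein-coding genes (9.3%) had an upstream summit within 500 bp of a TSS. The shares of gene lists below stand beside the 9.3% as descriptions without a test. The lists were chosen with earlier results of these data known, so their order by share is a description only. The lists differ in how many of their genes have one-strand promoters. The number of genes with a summit near TSSs of both strands and no upstream summit is therefore given as well, where there were any. Such genes were 1673 (10.9%) of all autosomal genes and 1533 (13.05%) of the protein-coding ones. The part of promoter arrangement in these shares was not tested.

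Transcription factors of stress responses had the highest share among the 31 lists, 8 of 18 (44.4%, interval 21.5 to 69.2), with 2 more at two-sided promoters. The signals were 1347 at REPTOR, 693.7 at cbt, a sugar-responsive repressor, 423.2 at Xbp1, which drives the unfolded protein response, and 288.4 at foxo, the factor inhibited by insulin signalling. The median offset over the 8 genes was -206.5 bp. Insulin and TOR signalling had 7 of 20 (35.0%), with Sesn, a sestrin that restrains TOR complex 1, at 1012, Thor, the translation inhibitor 4E-BP, at 333.1, Lk6, a kinase of the translation factor eIF4E, at 330.9, and foxo again. Nuclear hormone receptors had 7 of 19 (36.8%) at lower signals, 335.1 at Hnf4, 192.8 at ERR, 191.6 at Eip75B and 147.1 at Hr38. At two-sided promoters, 3 more genes of insulin and TOR signalling and 2 more receptor genes had a summit.

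Lipid storage and synthesis had the second highest share, 6 of 14 (42.9%), with Lpin, the fatty acid desaturase Desat1 at 313.4, acetyl-CoA carboxylase ACC at 260.6 and fatty acid synthase FASN1 at 225.5. Glycolysis had 4 of 12 (33.3%), namely Eno, phosphoglycerate kinase Pgk at 970.8, lactate dehydrogenase Ldh at 467.2 and pyruvate kinase PyK at 134.2, and 5 further glycolytic genes had a summit near TSSs of both strands and none upstream. The circadian clock had 4 of 12, the photoreceptor cry at 720.9, tim at 624.8, Pdp1 at 517.7 and vri at 247.5. Heat shock proteins and chaperones had 8 of 35 (22.9%), led by Hsp83 and Hsp27, with the small heat shock genes Hsp26 at 286.0 and Hsp22 at 233.7. At two-sided promoters, 5 more lipid genes, 1 more clock gene and 7 more heat shock and chaperone genes had a summit.

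In signalling pathways of development the shares were 5 of 17 for Notch, where numb, an inhibitor of the receptor, had 480.5 and the ubiquitin ligases neur, Su(dx) and Nedd4 had 237.4, 140.7 and 120.3, and 3 of 13 for Hippo, with app at 369.4, ex at 261.7 and the kinase hpo at 220.1. Each of the 2 lists had 2 more genes with a summit at two-sided promoters. The intervals of lists this small are wide, from 5.04 to 53.8% for Hippo.

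In some lists the summits were close to the start. Of 73 cytoplasmic ribosomal protein genes 17 (23.3%, interval 14.2 to 34.7) had an upstream summit, at a median offset of -18 bp, and 25 more had a summit at two-sided promoters and 15 a downstream one. The strongest were RpL30 at -22 bp with 394.0, RpL11 at -82 bp with 346.8, RpL31 at -16 bp with 326.8 and RpL27 at -5 bp with 273.7. Translation factors had 6 of 47 at a median of -27.5 bp, with the elongation factors eEF1gamma at 331.7, eEF2 at 260.6 and eEF1alpha1 at 236.0 and the initiation factor eIF5B at 181.2. Oxidative phosphorylation had 5 of 71 at a median of -31 bp. Its strongest, the ATP synthase subunit blw with 300.6, lay farther out at -151 bp, and the complex I subunit ND-B22 had 177.2 at -9 bp. The vacuolar ATPase had 3 of 27 at a median of -27 bp. At two-sided promoters, 11 more translation factor genes, 16 more of oxidative phosphorylation and 6 more of the vacuolar ATPase had a summit. For all autosomal genes with an upstream summit the median offset was -141.5 bp. For the lists of insulin and TOR signalling, nuclear receptors and glycolysis it was -218, -232 and -240.5 bp.

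Mitochondrial ribosomal protein genes had 3 of 63 (4.76%), at a median of -113 bp, and 29 more had a summit near TSSs of both strands. Besides mRpL41 these were mRpL19 at 219.7 and mRpL10 at 206.1. The aminoacyl-tRNA synthetases had 2 of 30, at a median of -72.5 bp, with 12 more at two-sided promoters, AlaRS at 191.9 and PheRS-m at 122.1. Insulator and promoter-binding factors had 1 of 15, Trl at 204.4, and autophagy genes 2 of 20, Vps15 at 302.7 and Atg14 at 114.2. At two-sided promoters, 6 more of the insulator list and 8 more of the autophagy list had a summit, 40% of each. Proteasome genes had 4 of 42, with Rpn11 at 246.7 and Rpn12 at 200.9, a share close to the 9.3%, and 7 more had a summit at two-sided promoters.

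No upstream summit was found at 161 chemoreceptor genes (interval up to 2.26%), 94 cuticle protein genes (up to 3.85%), 47 seminal fluid protein genes (up to 7.55%) or 18 genes of synapses and ion channels (up to 18.5%). At two-sided promoters, 1 seminal fluid protein gene and 1 gene of synapses and ion channels had a summit. Muscle genes had 3 of 20 (15%, interval 3.21 to 37.9), with sls, the Drosophila titin, at 218.8, and 1 more at two-sided promoters. Phototransduction had 2 of 17 (11.8%), with rdgC at 522.3. The remaining small lists were cell cycle with 2 of 24, Toll and Imd immunity with 2 of 17, where the inhibitor cact had 468.9, Trithorax and Brahma with 2 of 15, Polycomb with 1 of 17 and antioxidant enzymes with 2 of 11 (18.2%, interval 2.28 to 51.8). At two-sided promoters, 6, 4, 4, 4 and 3 more genes of these 5 lists, in this order, had a summit. Of 269 tRNA genes 4 had an upstream summit and of 243 small nucleolar RNA genes 5, of which snoRNA:Or-aca5 and snoRNA:Psi28S-2949 shared 1 peak. Two-sided promoters held a summit at 34 more tRNA genes (12.6%) and 10 more small nucleolar RNA genes (4.1%), against 10.9% of all autosomal genes.

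**Figure D5:**
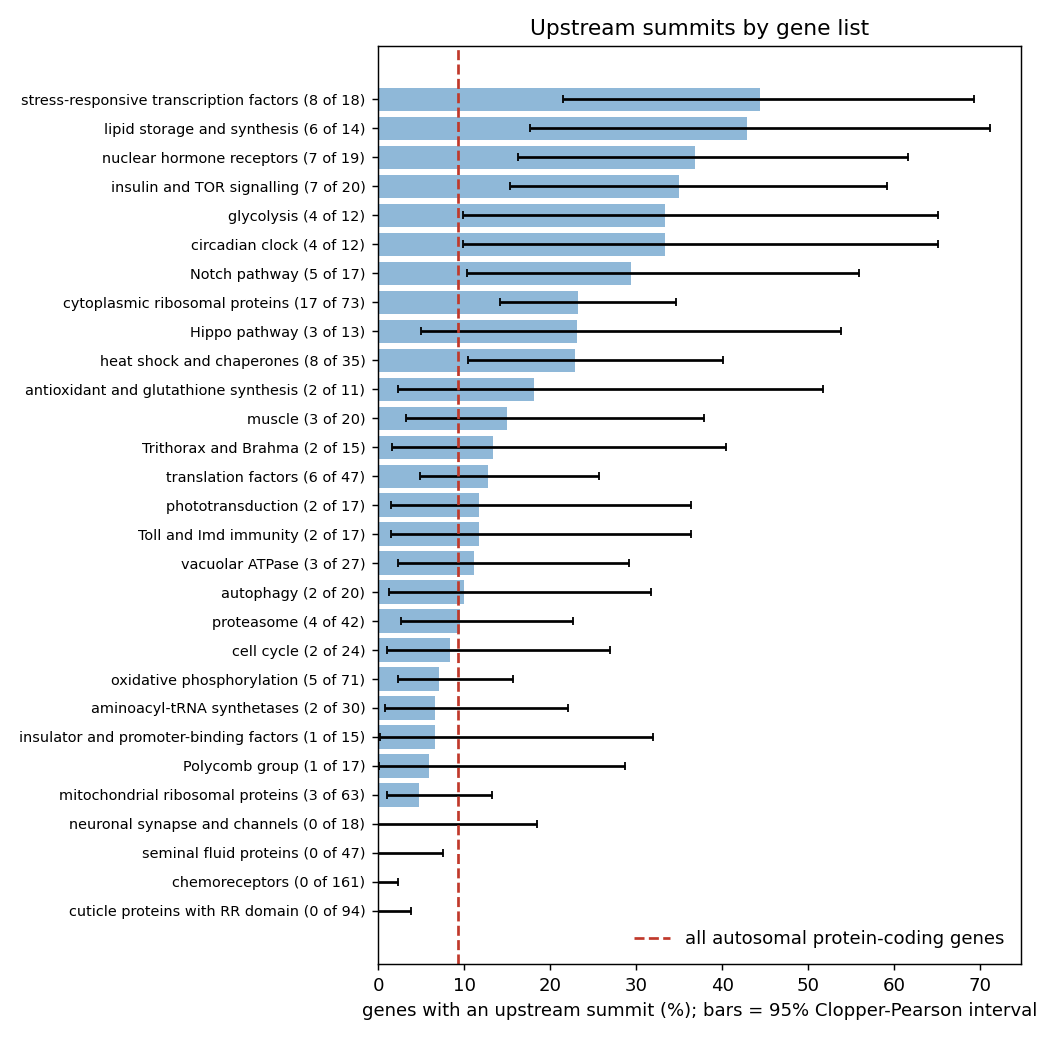
Share of autosomal genes with an upstream summit (x axis, percent, bars with 95% Clopper-Pearson intervals) in 29 gene lists (y axis, genes with a summit of genes in the list), with the 9.3% of all autosomal protein-coding genes as a dashed line. Stress-responsive transcription factors (8 of 18) and lipid genes (6 of 14) lie highest, and 4 lists at the bottom have 0.

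Short elements differed between upstream summits and the other promoter summits of the IDR list. In windows of 101 bp, 22 motifs were compared by two-sided Fisher's exact tests on the numbers of windows with a match on either strand, with Benjamini-Hochberg adjustment over 44 tests. Against summits near TSSs of both strands 3 of 22 motifs passed an adjusted p of 0.05 (13.6%), and against downstream summits 1 of 22 (4.55%). The p-values speak of peaks, not of animals, and neighbouring peaks can share a gene. Besides those spelled out in this account, the motifs were GGTCACAC (motif 1), GTATATTT or GTATTTTT (motif 6), the E-box with the core CACGTG, the E-box with the core CAGCTG, the repeat CACACAC, the initiator in its form TCAGTC, its form TCAGTT, its form TCATTC or its form TCATTT, the TCT initiator CTCTTTC, AGGNGGCGC for CTCF, TGAGTG for Zeste, TGACGTCA for the CRE, TGACTCA or the alternative TGAGTCA for AP-1, GTAAACA for FoxO, AGGTCA for nuclear receptors, GCGCATGC for Ewg, GCCATTT for Pho and the tract AAAAAAA. Among all one-strand promoters read 141 bp upstream, 7.94% held TATAAAA, 7.63% AGATAA, 25.3% the initiator and 13.7% CGATA.

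GAGA repeats had the largest odds ratio of the 4 differences that passed. GAGAGAG was present in 56 upstream windows (4.41%, interval 3.35 to 5.69) and in 4 of 878 windows near TSSs of both strands (0.456%, interval 0.124 to 1.16), an odds ratio of 10.1 (exact adjusted p = 9.06e-08). In all one-strand promoters read 141 bp upstream, those of the upstream peaks included, the share was 3.91%, close to that of the upstream peaks. Among those with no peak in the pooled list it was lower, 2.37%. By quintile of signal the share in upstream windows rose from 2.36% in the strongest to 5.91% in the weakest. DRE was the reverse, in 20 upstream windows (1.57%) and 38 two-sided ones (4.33%), an odds ratio of 0.354 (exact adjusted p = 0.00429). It was in 0.454% of the one-strand promoters read 141 bp upstream, a position farther out than most of its matches. In upstream windows these had a median position of -43.5 bp, with 13 of 20 within 60 bp of the TSS. The DRE difference did not pass in replicate 2's own top list, with an odds ratio of 0.591 and an exact adjusted p of 0.0932, and did in replicate 1's, with 0.303 and 0.000978. AGATAA, the core bound by GATA factors, was in 10.2% of upstream and 6.61% of two-sided windows, an odds ratio of 1.60 (exact adjusted p = 0.0435). This missed the threshold with 250 bp around the TSS (exact adjusted p = 0.239), with protein-coding TSSs only (0.168) and without mostly soft-masked peaks (0.0511).

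The classes also differed in GC, 36.6% upstream and 32.4% near TSSs of both strands. Among windows of 30 to 45% GC only, a setting chosen after seeing the data, the GAGA odds ratio was 8.14 (exact adjusted p = 0.108), the DRE odds ratio 0.375 (0.0796) and the GATA odds ratio 3.05 (0.00347), so the first pair kept its direction and missed the threshold with fewer windows.

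Against downstream summits, TATAAAA was more frequent upstream, in 130 windows (10.2%, interval 8.62 to 12.04) against 25 of 497 (5.03%, interval 3.28 to 7.34), an odds ratio of 2.15 (exact adjusted p = 0.00517). Its share was 14.2% in the strongest quintile and 7.48% in the weakest, and matches on the gene strand had a median position of -165.5 bp, with 12 of 80 within 60 bp of it, the stretch that includes the usual place of a TATA box. Downstream windows averaged 42.8% GC. Within 30 to 45% GC the odds ratio was 1.63 (exact adjusted p = 0.546).

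Motif 7 had a preferred direction. It was present in 94 upstream windows (7.40%), in 9.00% of windows near TSSs of both strands (odds ratio 0.808, exact adjusted p = 0.433) and in 5.43% of downstream windows (odds ratio 1.39, exact adjusted p = 0.400), neither of which passed. Of the 88 windows with matches on a single strand, 64 read towards the gene and 24 away from it (72.7% towards, interval 62.2 to 81.7; exact two-sided binomial test, adjusted p = 0.000356 over 15 motifs), and this was the 1 of 15 motifs (6.67%) that passed. The counts were 54 and 20 in replicate 1's own list and 76 and 37 in replicate 2's. The same lean was there in the other classes of promoter summits, so it is not shown to be particular to upstream ones: in the 2 replicate lists, 59 against 19 and 59 against 26 windows near TSSs of both strands, read by the nearest TSS, and 14 against 6 and 17 against 5 downstream windows. These differences between classes were not tested. In one-strand promoters read 141 bp upstream it was 191 towards and 168 away, at a position where the element is scarcer (2.95%). Matches reading towards the gene had a median position of -39.5 bp from the TSS and those reading away -91 bp.

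Motif 7 followed the weaker peaks near the start site. Its share by quintile was 3.15, 5.51, 7.87, 9.06 and 11.4% from the strongest to the weakest, and the upstream peaks that held it had a median offset of -50 bp and a median GC of 43.6%. Peaks with a TATAAAA match had -164 bp and 26.7%. The other motifs, among them the initiator in 26.6% of windows and CGATA, the core bound by BEAF-32, in 17.0%, passed in neither comparison and showed no strand preference past the threshold.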

How the data were processed

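Peak lists of CG33017-GFP ChIP-seq (dm6) were used: the IDR list, the pooled list and a list for each of 2 biological replicates. Per the text deposited with the samples, the authors called peaks per replicate and on the pooled replicates against a control, then thresholded on IDR; which aligner, caller and IDR threshold is not given in the sources used here. The deposited signal value has no stated unit, the deposited −log10 q-value was not used, and the deposited summit offset places each summit.

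TSSs came from Ensembl release 115 (BDGP6), sequence from RefSeq Release 6. Python 3.11.15, numpy 2.4.6, pandas 2.3.3, scipy 1.17.1 and matplotlib 3.10.9 were used. Motifs were exact matches on both strands within 50 bp of the summit; some overlap (TATCGATA contains CGATA). Orientation was tested for non-palindromic motifs with at least 10 one-strand windows. Tests were Fisher's exact and binomial tests, checked on simulated data, with Benjamini-Hochberg adjustment at 0.05. A replicate's top list holds its 4867 highest-signal peaks. A shared peak overlaps by at least 1 bp.

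Named genes are those nearest the 25 strongest peaks, up to 4 strongest per list, 3 peaks inside and outside 500 bp, 3 of largest rank difference and the weakest. Sequences are from strong or motif-holding peaks outside UTRs and at most 50% soft-masked, a limit set after values were seen. The class, lists and motifs were chosen with earlier results of these data known.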

Additional observations from a re-analysis of the deposited data

How the results depend on the processing

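Alternatives were the peak midpoint, 250 or 1000 bp from a TSS, protein-coding TSSs only, the 2433 IDR peaks of higher signal (the higher-signal part), no peaks mostly soft-masked, each replicate's own list, and, after seeing the data, windows of 30 to 45% GC. The count of upstream peaks stayed between 1191 and 1270, except 662 in the higher-signal part, where 659 genes had a member. The median offset was -112 bp at 250 bp, -172.5 bp at 1000 bp, -161 bp in the higher-signal part and -153 to -138 bp with 1 replicate left out. Summit GC was 37.1% at 250 bp, 34.1% in the higher-signal part, 37.8% with 100 bp each side and 36.6 to 37.0% with 1 replicate left out. Replicate overlap was 81.6% when a peak had to cover a member by 50%, 99.9% in the full lists and 99.4% in the higher-signal part.

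Against summits near TSSs of both strands, 1 motif passed in the higher-signal part, 10 with 100 bp each side and 1 in windows of 30 to 45% GC. Against downstream summits, 4 passed with midpoints, 2 at 250 bp, 3 with 100 bp each side and 2 to 4 with 1 replicate left out, and 0 passed Fisher's exact test in the higher-signal part, where 1 had an unadjusted p below 0.05. For orientation, 2 passed at 250 bp, 2 with 100 bp each side and 2 to 3 with 1 replicate left out, and 0 passed the exact binomial test in the higher-signal part, 0 also unadjusted. The cause was not tested, but that part holds about 50% fewer windows. Odds ratios ran from 3.36 to 15.1 for GAGA, 0.291 to 0.591 for DRE, 1.33 to 3.05 for GATA and 1.61 to 2.35 for the TATA box, with adjusted exact p up to 0.108, 0.667, 0.667 and 0.667. The motif 7 share towards the gene ran from 63.6 to 74.7%, with adjusted exact p up to 0.570. In the higher-signal part GAGA passed (exact adjusted p = 0.00194) and the other 4 calls did not. No direction of these 5 changed under any of these alternatives. No paired analysis was possible because the study has 1 group. Read depth is unknown from peak lists.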
